A study of Mus musculus with 18 samples.

Results

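The genes described here encode the proteins of the cytosolic ribosome, the particle that makes nearly all cellular protein. They were taken as every gene on the array whose probe set carried a single symbol of Rpl or Rps followed by a digit, or Rplp0, Rplp1, Rplp2 or Rpsa, leaving out the S6 kinases (Rps6k) and names that mark pseudogenes. One probe set of highest mean stood for each gene, and it had to exceed log2 4 on at least 3 arrays. Of 50 such genes on the array 45 passed, 24 with large subunit names and 21 with small subunit names, among 9053 genes tested in all. The 5 that did not pass were Rps16, Rps27, Rpl39l, Rpl3l and Rps4l. Rps27 was just outside, with a highest value of 3.90, and Rpl14, Rps25 and Rpl12 were just inside, the last 2 with means over all arrays of 4.27 and 4.37 on the log2 scale. Genes whose probe sets list several symbols, among them Rplp1, Rpl5, Rpl3 and Rps27a, were not analysed here as members.

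Expression was measured on 18 arrays of male mouse liver tissue. The first group was 7 samples of hepatocellular carcinoma (HCC) tissue from wild-type (WT) C3H/HeOuJ mice aged 54 weeks. These mice had received the liver carcinogen diethylnitrosamine (DEN, 100 mg/kg at week 12) and then 6 doses of the hepatotoxin CCl4 (0.5 ml/kg, weeks 13 to 23). The second was 5 samples of HCC from C3H/HeJ mice of the same age given the same agents, which carry the allele Tlr4P712H of the receptor for bacterial lipopolysaccharide. The third was 3 samples of HCC from WT C3H/HeOuJ mice, also aged 54 weeks. They were given those agents and, from week 10 on, ampicillin, neomycin, metronidazole and vancomycin in the drinking water. The fourth was 3 samples of normal liver from WT C3H/HeOuJ mice aged 15 weeks. Whether each sample is a different animal is not stated, so the p-values speak only for the spread among the samples of a group, which may be technical. The Tlr4 allele goes with the substrain, and tumour goes with age and with both toxic agents, so these cannot be told apart.

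Every ribosome holds one copy of most of these proteins, arranged on the ribosomal RNAs of a small subunit, which reads the messenger RNA, and a large subunit, which joins amino acids. Their messenger RNAs are among the most abundant in a cell and typically begin with an uninterrupted tract of pyrimidines (C and U), the 5′ terminal oligopyrimidine (TOP) tract, through which growth signals acting on mTOR control their translation. An array measures the messenger RNA and not the protein or its translation. A pair of the selected names do not belong to subunit proteins: Rps19bp1 encodes a protein that binds Rps19, and Rpl7l1 encodes a relative of Rpl7 that acts in ribosome assembly.

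Of the 45 genes, 40 matched a promoter in the RefSeq table (GRCm38.p6), which gave 47 start sites with 250 bases before and 50 after each. A run of at least 6 C or T bases touching the 20 bases on either side of the start was found in 30 of these 47 promoters (63.8%), against 43.9% of all 32851 promoters in the table. The motif CGGAAG, the core bound by ETS family factors, was found on either strand in 29 of 47 (61.7%), against 16.9% of all promoters. The motif TCGCGAGA on either strand was found in 10 of 47 (21.3%), against 0.995% of all. The core of a TATA box (TATAAA) was found in 6 of 47 (12.8%), against 13.6% of all, and CACGTG, the sequence bound by MYC family factors, in 5 of 47 (10.6%), against 7.15% of all. Each motif was searched on its own, and matches of different motifs may overlap. The 6 sequences that follow belong to bright members with a promoter in the table: the 3 with the largest rise in WT tumours (Rplp0, Rps9, Rps19) and the 3 with the smallest difference (Rps27l, Rps2, Rps28). Each covers 80 bases before and 20 after the annotated start. They lie at chr5:115559387-115559486 (Rplp0), chr7:3703961-3704060 (Rps9), chr7:24884512-24884611 (Rps19, first of 3 listed starts), chr9:66946006-66946105 (Rps27l, first of 2 listed starts) and chr17:24719983-24720082 (Rps2), all on the plus strand, and at chr17:33824543-33824642 (Rps28) on the minus strand. Capitals mark the pyrimidine runs defined above and matches of TCGCGAGA.
Rplp0: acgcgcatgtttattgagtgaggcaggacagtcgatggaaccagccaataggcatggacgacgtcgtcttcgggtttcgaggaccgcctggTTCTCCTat
Rps9: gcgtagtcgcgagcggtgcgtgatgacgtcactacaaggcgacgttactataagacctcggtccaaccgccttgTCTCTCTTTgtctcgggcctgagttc
Rps19: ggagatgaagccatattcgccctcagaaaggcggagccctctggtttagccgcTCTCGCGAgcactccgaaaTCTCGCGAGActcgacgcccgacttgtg
Rps27l: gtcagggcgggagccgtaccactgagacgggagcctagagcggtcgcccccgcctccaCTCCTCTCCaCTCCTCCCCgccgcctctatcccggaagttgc
Rps2: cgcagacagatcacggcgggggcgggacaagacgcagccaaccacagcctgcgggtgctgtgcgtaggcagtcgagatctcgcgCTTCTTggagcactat
Rps28: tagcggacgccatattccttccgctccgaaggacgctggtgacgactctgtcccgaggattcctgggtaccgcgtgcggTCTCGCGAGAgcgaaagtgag
Pyrimidine runs stand in 2 of the 3 promoters of each kind, and TCGCGAGA in 1 of the 3 of each kind. CGGAAG was absent from the whole windows of Rplp0, Rps9 and Rps19 and present in those of Rps27l, Rps2 and Rps28, a description of 6 promoters only.

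The arrays were alike in their middle: the median of all genes tested ranged from 7.38 to 7.50 in tumours and from 7.39 to 7.44 in normal liver (log2 intensity), and pairs of arrays correlated at 0.947 to 0.995. The hepatocyte markers Alb, Apoa1 and Ttr averaged log2 14.56 to 14.89 in the 3 tumour groups and 14.58 to 14.73 in normal liver, near the top of the scale. The other hepatocyte markers were lower in WT tumours than in normal liver: in WT, Tlr4-mutant and antibiotic tumours Tat averaged 9.80, 11.20 and 11.51, against 11.51 in normal liver. Cps1 averaged 12.20, 13.02 and 13.11 in these tumours, against 13.40 in normal liver, and Serpina1c averaged 13.48, 13.78 and 13.73, against 13.83. The leukocyte gene Ptprc averaged 7.18, 6.99 and 6.94 in WT, Tlr4-mutant and antibiotic tumours, against 4.70 in normal liver. The immunoglobulin gene Ighm went the other way, with 5.15, 5.51 and 6.64 in these tumours, against 7.93 in normal liver, while Cd3e, Cd79a, Ms4a1 and Nkg7 did not pass the filter. The part of these cell type differences in the results was not tested. Further measures moved with tumour against normal liver. The signal of the Gapdh control's 3′ end over its 5′ end, a sign of RNA integrity and labelling, averaged 0.42, 0.66 and 0.40 log2 units in WT, Tlr4-mutant and antibiotic tumours, against 1.52 in normal liver. That difference had an exact two-sided permutation p of 0.0083 for WT tumours, adjusted 0.05 over 12 such tests, and this p is the smallest that 7 against 3 samples allow. The actin control's 3′ minus 5′ difference averaged 2.14, 2.25 and 2.03 in the same tumour groups, against 3.90 in normal liver. A dap control probe set read 1.24 to 1.91 in tumours and 10.53 to 10.60 in normal liver. The part of array handling in the tumour comparisons was not tested and cannot be told apart from tissue. In bulk tissue, fewer cells of a type and less RNA per cell cannot be told apart either.

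In WT tumours the ribosomal protein genes stood higher than in normal liver nearly as a block, by modest amounts. The test was limma's moderated test on all 9053 genes, with Benjamini-Hochberg adjustment and a threshold of 0.05. It called 27 of 45 members (60%) higher, where 18.8% of all genes were higher, and 1 member lower, where 20.2% of all genes were lower. The log2 difference was positive in 43 of 45 members, against 49.5% of all genes, and its median was 0.34 (1.27-fold) over the members and -0.01 over all genes. Every WT tumour lay above every normal liver for 30 members (66.7%), against 18.4% of all genes, and for 1 member every WT tumour lay below, against 20% of all genes. The 36 members with a mean of at least log2 10 read 11.06 or more on every array, so none owed its place to the filter, and of these 26 rose, none fell and all 36 differences were positive, from 0.02 to 0.92. Of the 273 other genes at log2 12 or more, 41 rose and 74 fell, with a median of -0.14. The median of the 36 members ran from 12.63 to 12.97 in WT tumours, from 12.59 to 12.85 in Tlr4-mutant tumours and from 12.66 to 13.09 in antibiotic tumours, against 12.35 to 12.44 in normal liver. No tumour reached down to a normal liver in this median. The highest tumours were antibiotic tumour 30 and WT tumour 19, and without WT tumours 17 and 19 together 22 members rose in WT tumours.

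**Figure D1:**
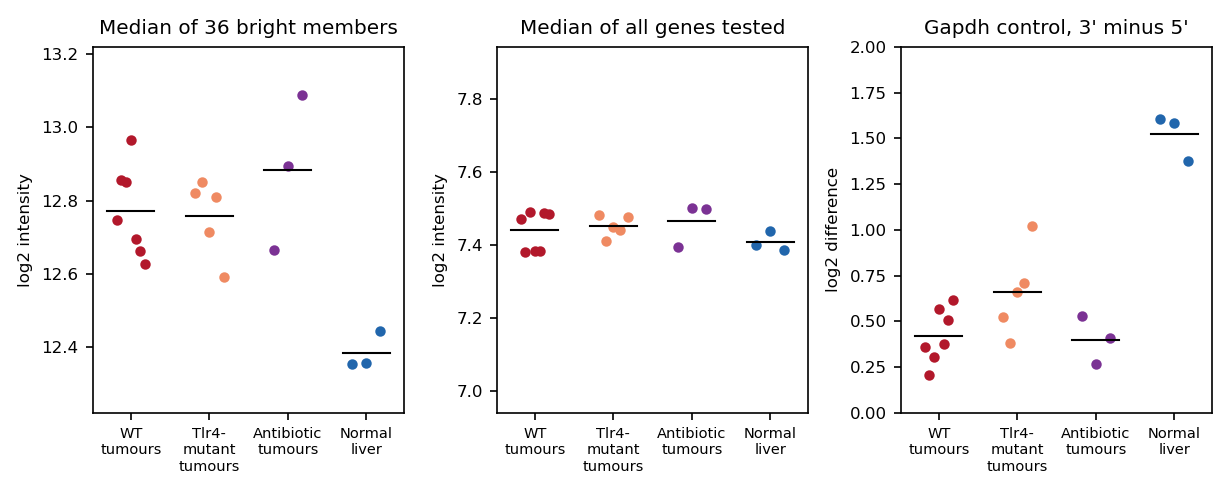
Each point is 1 array and each black line a group mean, with WT, Tlr4-mutant and antibiotic tumours left of normal liver. The left panel shows the median log2 intensity of the 36 members at log2 10 or more, in which all tumours (12.59 to 13.09) lie above all normal livers (12.35 to 12.44). The middle panel shows the median of all genes tested and the right panel the log2 signal of the Gapdh control's 3′ end minus its 5′ end, which is 1.37 or more in normal liver and 1.02 or less in tumours.

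Tlr4-mutant and antibiotic tumours were each set against the same 3 normal livers, so the 3 comparisons share their controls. In Tlr4-mutant tumours 19 of 45 members (42.2%) were higher, where 11.7% of all genes were higher, and 1 was lower, where 10.5% of all genes were lower. The log2 difference was positive in 42 members, where 51.4% of all genes were positive, with a median of 0.34 against 0.02 over all genes. All Tlr4-mutant tumours lay above all normal livers for 33 members, where 20.2% of all genes did so, and below them for 1, where 18.9% did. In antibiotic tumours 22 of 45 members (48.9%) were higher, where 8.11% of all genes were higher, and 1 was lower, where 6.91% were lower. The difference was positive in 43 members, where 49.9% of all genes were positive, with a median of 0.46 (1.38-fold) against -0.0022 over all genes. All antibiotic tumours lay above all normal livers for 36 members, where 19.8% of all genes did so, and below them for 1, where 22.5% did. Of the 36 members at log2 10 or more, which leave out the dim Rpl12 and Rpl14, 18 were higher and 34 positive in Tlr4-mutant tumours. In antibiotic tumours 21 of these were higher and 36 positive. The counts over all 45 members rested on few arrays. In Tlr4-mutant tumours the 19 became 7, 9 and 11 without normal liver 1, 2 or 3, and 12 without Tlr4-mutant tumour 24 or 26. In antibiotic tumours the 22 became 9, 10 and 12 without normal liver 1, 2 or 3, and 10 without antibiotic tumour 29 or 30, and 6 when only those 2 groups were fitted. The share of all genes called in either direction moved too when any 1 array was left out. In Tlr4-mutant tumours it was 22.3% with all arrays and ran from 11.2% to 24.4%. In antibiotic tumours it was 15.0% and ran from 6.37% to 16.5%, and from 7.27% to 21.4% over the alternatives. The median differences moved less, between 0.31 and 0.36 in Tlr4-mutant tumours and between 0.40 and 0.53 in antibiotic tumours, when any 1 array was left out.

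**Figure D2:**
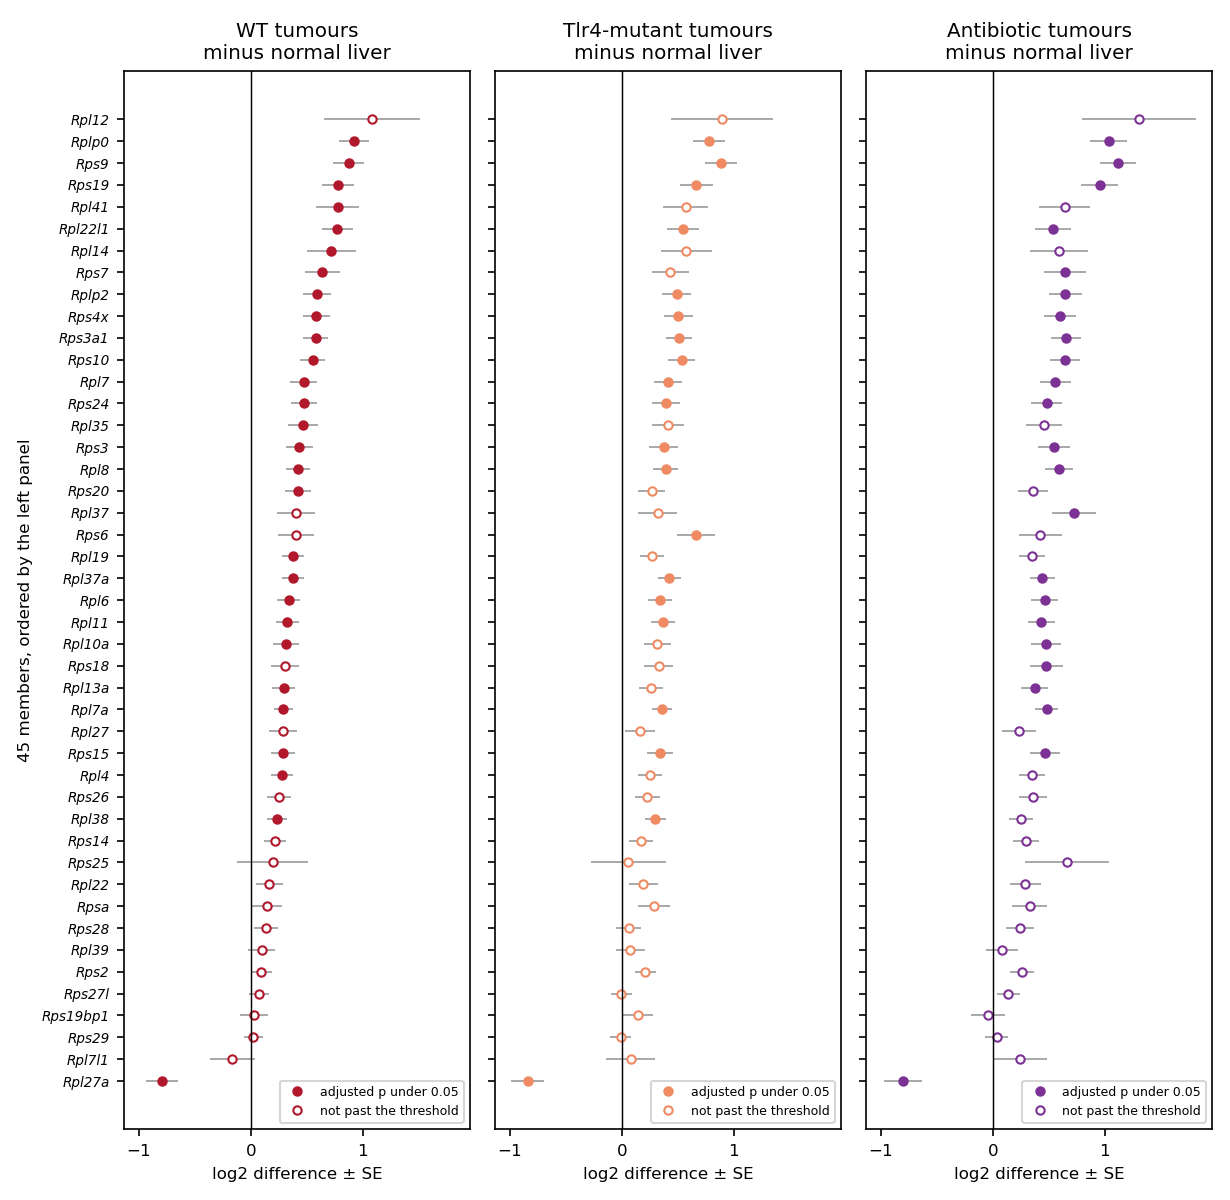
Each row is 1 of the 45 members, ordered by its difference in WT tumours, and each panel shows 1 tumour group minus normal liver as a log2 difference with its standard error. Filled points passed the adjusted p threshold of 0.05 (27, 19 and 22 to the right of zero and 1 to the left in each panel). Rpl27a is the only filled point left of zero, and Rpl12 and Rpl14 were too dim in normal liver for their difference to be more than a bound.

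Rplp0, the base of the stalk of the large subunit, gave the largest rise among bright members in WT tumours. The stalk recruits the translation factors that hydrolyse GTP. Rplp0 (chr5:115559467-115563729) read 12.82, 13.00 and 13.39 (lowest, median and highest) in WT tumours. It read 12.99, 13.07, 12.91, 12.91 and 12.68 in Tlr4-mutant tumours and 12.93, 13.25 and 13.32 in antibiotic tumours, against 12.08, 12.12 and 12.19 in normal liver. All 15 tumours lay above all 3 normal livers. The difference was 0.92 ± 0.14 (SE; 1.90-fold, adjusted p = 0.00017) in WT tumours, 0.78 ± 0.15 (adjusted p = 0.0017) in Tlr4-mutant tumours and 1.03 ± 0.16 (adjusted p = 0.00085) in antibiotic tumours. Rplp2, an arm of the stalk, averaged 13.05 ± 0.19 in WT tumours and 12.46 ± 0.07 in normal liver (SD, n = 7 and 3), a difference of 0.59 with an adjusted p of 0.0021 by limma. Its difference was 0.49 in Tlr4-mutant tumours (adjusted p = 0.015) and 0.65 in antibiotic tumours (adjusted p = 0.0091). In Tlr4-mutant tumours that call was lost without normal liver 1 or 2 (adjusted p = 0.051 and 0.070). The antibiotic call of Rplp2 was lost under 1 alternative way of processing (adjusted p = 0.052).

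Rps9 and Rps19 were the small subunit proteins that rose most. Rps9 (chr7:3703954-3706897) read 11.79, 11.99 and 12.28 (lowest, median and highest) in WT tumours. It read 12.07, 12.08, 11.97, 12.02 and 11.83 in Tlr4-mutant tumours and 11.88, 12.23 and 12.56 in antibiotic tumours, against 11.06, 11.06 and 11.20 in normal liver. The tumours and normal livers did not overlap. The difference was 0.88 ± 0.14 (1.84-fold, adjusted p = 0.00026) in WT tumours, 0.89 ± 0.15 (adjusted p = 0.00068) in Tlr4-mutant tumours and 1.12 ± 0.16 (2.17-fold, adjusted p = 0.00044) in antibiotic tumours. Rps19, whose human counterpart is the gene most often mutated in Diamond-Blackfan anaemia (chr7:24884592-24889811), read 11.93, 12.13 and 12.57 in WT tumours as lowest, median and highest. It read 12.19, 12.08, 12.04, 12.17 and 11.96 in Tlr4-mutant tumours and 12.03, 12.56 and 12.53 in antibiotic tumours, against 11.37, 11.40 and 11.49 in normal liver. Again no tumour overlapped normal liver. Its difference was 0.78 in WT tumours (adjusted p = 0.0008), 0.67 in Tlr4-mutant tumours (adjusted p = 0.0059) and 0.96 in antibiotic tumours (adjusted p = 0.0019). The calls of Rplp0, Rps9 and Rps19 held in all 3 comparisons without any 1 array and under each alternative in which the gene was measured. Rplp0 was measured in all 11 alternatives and Rps9 and Rps19 in 10. The last 2 had no value in the alternative without probe sets that may share sequence, so their calls were not tested there.

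**Figure D3:**
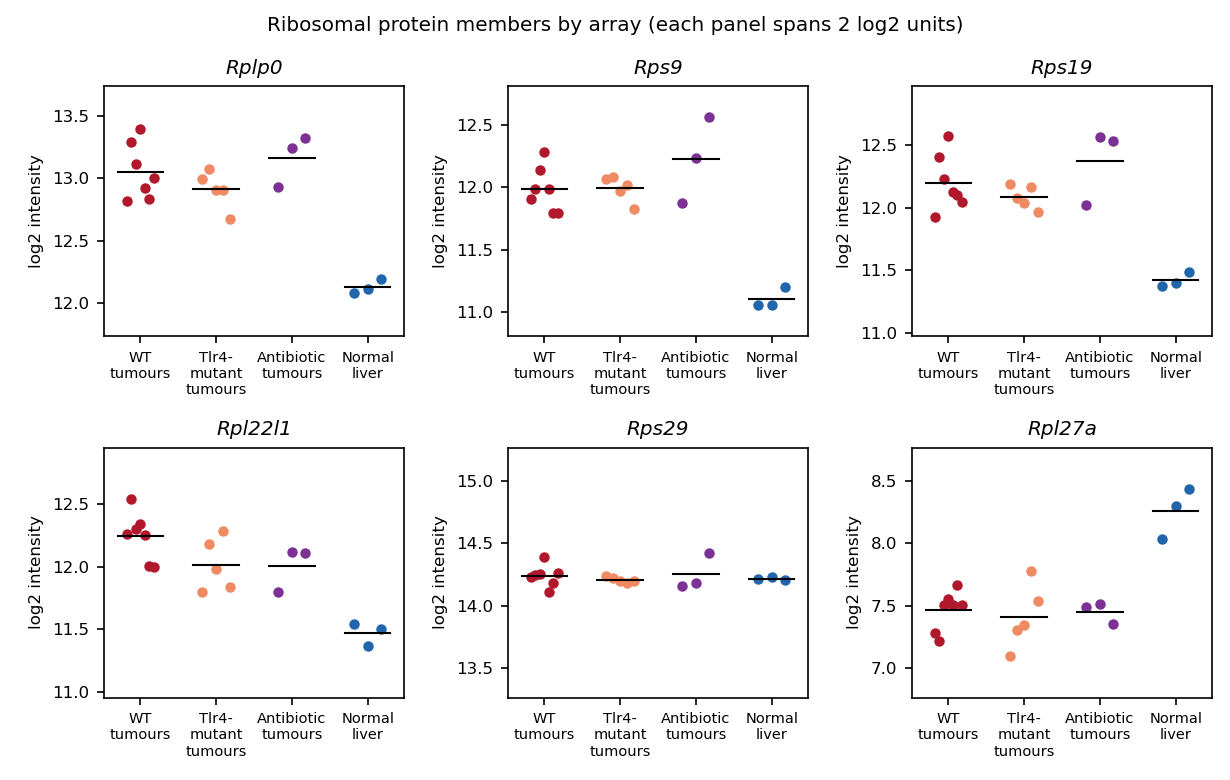
Each point is 1 array and each black line a group mean, in log2 intensity, for 6 members. Each panel spans 2 log2 units. In Rplp0, Rps9, Rps19 and Rpl22l1 all tumours lie above all normal livers, in Rps29 all groups lie between 14.11 and 14.42, and in Rpl27a all tumours (7.10 to 7.78) lie below all normal livers (8.04 to 8.43).

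Further members of both subunits had smaller positive differences in all 3 tumour groups, most of them past the threshold. Rps4x, an X-linked small subunit gene, differed by 0.59, 0.51 and 0.60 in WT, Tlr4-mutant and antibiotic tumours against normal liver. The Rps4x calls in Tlr4-mutant and antibiotic tumours were lost without normal liver 1 (adjusted p = 0.051 and 0.050), and the antibiotic call also under 1 alternative (adjusted p = 0.058). Rps10 differed by 0.55, 0.53 and 0.64, and Rps3a1 by 0.58, 0.51 and 0.65, both small subunit genes that passed in each comparison with adjusted p-values of 0.0012 to 0.0067. Rps7, whose human protein can bind the p53 regulator MDM2, differed by 0.64 in WT tumours (adjusted p = 0.0052) and 0.64 in antibiotic tumours (adjusted p = 0.030), and by 0.44 in Tlr4-mutant tumours, where it missed the threshold (adjusted p = 0.069). The antibiotic call of Rps7 was lost without any 1 normal liver or antibiotic tumour 29 or 30 (adjusted p = 0.060 to 0.10). Rpl7, of the large subunit, differed by 0.48, 0.42 and 0.56 in WT, Tlr4-mutant and antibiotic tumours (adjusted p = 0.0062, 0.028 and 0.016). The Rpl7 call in Tlr4-mutant tumours was lost without any 1 normal liver or Tlr4-mutant tumour 24 or 26 (adjusted p = 0.055 to 0.096), and that in antibiotic tumours without normal liver 1 or 2 or antibiotic tumour 30 (adjusted p = 0.056, 0.059 and 0.057). Rpl7a, also of the large subunit, differed by 0.29, 0.36 and 0.48 (adjusted p = 0.013, 0.010 and 0.0052), and its calls in WT and Tlr4-mutant tumours were lost without normal liver 1 (adjusted p = 0.068 and 0.057). The antibiotic call of Rpl7a was lost under 1 alternative (adjusted p = 0.069). Rpl38, a small large-subunit protein, differed by 0.24, 0.30 and 0.25 (adjusted p = 0.046, 0.031 and 0.11), and its WT call was lost in 13 of the 18 fits with 1 array left out (adjusted p = 0.053 to 0.13). These were the fits without normal liver 1, 2 or 3, without WT tumour 16, 17, 18, 19 or 20, and without any 1 Tlr4-mutant tumour. The WT call of Rpl38 was also lost under 4 alternatives (adjusted p = 0.063 to 0.12). Its Tlr4-mutant call was lost without normal liver 1, 2 or 3 or Tlr4-mutant tumour 24, 25 or 26 (adjusted p = 0.055 to 0.10). Rpl11, which with Rpl5 and the 5S ribosomal RNA forms a particle that can bind MDM2, averaged 12.23 ± 0.13 in WT tumours and 11.91 ± 0.02 in normal liver (SD, n = 7 and 3), a difference of 0.33 with an adjusted p of 0.020 by limma. It was 0.37 (adjusted p = 0.024) in Tlr4-mutant tumours and 0.44 (adjusted p = 0.027) in antibiotic tumours. In WT tumours the Rpl11 call was lost without any 1 of the normal livers (adjusted p = 0.065, 0.067 and 0.053 without normal liver 1, 2 and 3). In Tlr4-mutant tumours it was lost without any 1 normal liver or Tlr4-mutant tumour 24 or 26 (adjusted p = 0.052 to 0.081), and in antibiotic tumours without any 1 normal liver or antibiotic tumour 29 or 30 (adjusted p = 0.065 to 0.083). The antibiotic calls of Rps7, Rpl7 and Rpl11 were each lost under 1 alternative too. Among members at log2 10 or more, 16 of 18 large subunit genes and 10 of 18 small subunit genes rose in WT tumours, and their medians were 0.36 and 0.36.

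Paralogues, read from different probe sets, are given side by side. Rpl22l1, the close relative of Rpl22 (chr3:28805508-28807424), read 12.00, 12.26 and 12.54 in WT tumours as lowest, median and highest. It read 11.80, 12.18, 11.98, 12.29 and 11.84 in Tlr4-mutant tumours and 11.80, 12.12 and 12.11 in antibiotic tumours, against 11.54, 11.36 and 11.51 in normal liver. All tumours lay above all normal livers. The difference was 0.77 ± 0.14 (1.71-fold, adjusted p = 0.00068) in WT tumours, 0.55 (adjusted p = 0.014) in Tlr4-mutant tumours and 0.54 (adjusted p = 0.037) in antibiotic tumours. The antibiotic call was lost without any 1 normal liver or without antibiotic tumour 29 or 30 (adjusted p = 0.080 to 0.13), and the Tlr4-mutant call without normal liver 2 (adjusted p = 0.071). The antibiotic call of Rpl22l1 was also lost under 2 alternatives. Rpl22 itself averaged 12.54 ± 0.18 in WT tumours and 12.37 ± 0.08 in normal liver (SD, n = 7 and 3). Its differences of 0.17, 0.19 and 0.29 in WT, Tlr4-mutant and antibiotic tumours did not pass (adjusted p = 0.28, 0.28 and 0.17), and the difference between the paralogues was not tested. Over the other settings the Rpl22 difference in WT tumours ran from 0.09 to 0.30. Rps27l, a relative of Rps27 that p53 induces in human cells, differed by 0.08, -0.01 and 0.14 (adjusted p = 0.52, 0.98 and 0.38). Rpl7l1, the relative of Rpl7, differed by -0.16, 0.08 and 0.24 and did not pass in any group (adjusted p = 0.54, 0.82 and 0.52).

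A further set of members did not pass the test in WT tumours. Rps29, a small zinc-binding protein of the small subunit, read 14.11, 14.25 and 14.38 in WT tumours as lowest, median and highest, and 14.22, 14.22 and 14.20 in normal liver. Its difference was 0.02 with a 95% interval of -0.16 to 0.21. It was near the top of the scale, where the highest value of an array was 14.76 to 15.00, and whether so bright a probe set can show a rise was not tested. Rps28, another small subunit protein, differed by 0.13 in WT tumours (adjusted p = 0.33), and Rps2, also of the small subunit, by 0.10 (adjusted p = 0.41). With probe sets that list a ribosomal protein beside other symbols, Rps2 differed by 0.25 in WT tumours and passed (adjusted p = 0.029). Rpsa, a small subunit protein also known as a laminin receptor, differed by 0.14 in WT tumours, 0.29 in Tlr4-mutant tumours and 0.33 in antibiotic tumours, none past the threshold (adjusted p = 0.42, 0.16 and 0.17). Fau, which encodes a small subunit protein but lies outside the name rule, differed by 0.01, 0.04 and 0.30 (adjusted p = 0.96, 0.84 and 0.17). Rps19bp1 differed by 0.03, 0.15 and -0.04 (adjusted p = 0.88, 0.45 and 0.88).

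Rpl27a, a large subunit gene (chr7:109519195-109522369), was the only member called lower, and in all 3 groups. It read 7.22, 7.51 and 7.67 in WT tumours as lowest, median and highest, and 7.10, 7.31, 7.34, 7.78 and 7.54 in Tlr4-mutant tumours. Antibiotic tumours read 7.49, 7.51 and 7.35, and normal livers 8.04, 8.30 and 8.43. No tumour overlapped normal liver. The difference was -0.79 ± 0.14 (adjusted p = 0.00067) in WT tumours, -0.84 ± 0.15 (adjusted p = 0.0012) in Tlr4-mutant tumours and -0.80 ± 0.17 (adjusted p = 0.0053) in antibiotic tumours. This probe set was much dimmer than those of most members, and a brighter one that lists Rpl27a beside other symbols, and so cannot be assigned to it alone, went the other way (0.31, 0.33 and 0.36, adjusted p = 0.011, 0.018 and 0.030).

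The 8 other members below log2 10 gave mixed values. Rps6, the small subunit protein phosphorylated by the S6 kinases, averaged 6.58 ± 0.30 in WT tumours and 6.17 ± 0.23 in normal liver (SD, n = 7 and 3), with overlapping samples and an adjusted p of 0.060 by limma. It was 0.66 higher in Tlr4-mutant tumours (adjusted p = 0.013), a call lost without normal liver 3 (adjusted p = 0.079), and 0.42 in antibiotic tumours (adjusted p = 0.14). Rpl12 and Rpl14 were below log2 4 in all normal livers, so their change is only a bound, and both passed the filter only through tumours. Their tests give no support, yet the counts over all 45 members include both among the positive differences of each comparison. The counts without overlap include Rpl12 in WT and antibiotic tumours and Rpl14 in Tlr4-mutant and antibiotic tumours. Counts over the 36 members at log2 10 or more leave both out. Rpl14, a large subunit gene, averaged 4.18 in WT tumours and 3.46 in normal liver, with overlapping samples and a bound of at least 1.13-fold. It was among the 27 called higher in WT tumours (adjusted p = 0.017), and that call was lost without normal liver 3 (adjusted p = 0.11), under quantile normalization (adjusted p = 0.12) and with only the 2 groups fitted (adjusted p = 0.051). Rpl12, also of the large subunit, averaged 4.57 in WT tumours and 3.49 in normal liver, a bound of at least 1.48-fold, and was not called (adjusted p = 0.056). Rpl37, a large subunit gene, differed by 0.41 in WT tumours (adjusted p = 0.064) and 0.72 in antibiotic tumours (adjusted p = 0.024). That antibiotic call was lost without normal liver 2 or 3 or antibiotic tumour 29 (adjusted p = 0.083, 0.092 and 0.12), and also under 1 alternative. Rps25, a small subunit gene, and Rpl39, a large subunit gene, differed by 0.20 and 0.10 in WT tumours and did not pass (adjusted p = 0.64 and 0.54). For 6 of the 9 members below log2 10, a probe set that lists the gene beside other symbols averaged 12.34 to 14.08, so a low level here need not be a low level of the gene.

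Ribosomal protein genes have many processed pseudogenes. Of the 45 members, 34 were read by probe sets whose names mark possible shared sequence. The mark covers sequence shared with other transcripts of the same gene (ending _a_at, as for Rps19) as well as with other genes (_s_at or _x_at, as for Rps9). The 34 are therefore not a count of probe sets that may read pseudogenes. With only the other probe sets, 17 members remained, of which 6, 4 and 4 rose in WT, Tlr4-mutant and antibiotic tumours. Over the 11 alternatives, this one included, the share of all genes called in either direction ran from 21.95% to 54.8% in WT tumours. It ran from 11.3% to 51.7% in Tlr4-mutant tumours and from 7.27% to 21.4% in antibiotic tumours. Rpl41, which encodes a tiny basic peptide of the large subunit, depended on the choice of probe set. Its probe set of highest mean read 12.54, 12.82 and 13.54 in WT tumours as lowest, median and highest, against 11.96, 12.21 and 12.22 in normal liver, a difference of 0.78 (adjusted p = 0.0053). The mean of its probe sets gave 0.18 (adjusted p = 0.41), and the probe set with no mark of shared sequence gave -0.20 (adjusted p = 0.67). Over the alternatives its difference ran from -0.45 to 0.57 in Tlr4-mutant tumours and from -0.48 to 0.64 in antibiotic tumours. Of the 20 members with several kept probe sets, 15 had the same sign in all of them in WT tumours, the exceptions being Rpl41, Rpl22, Rps24, Rps27l and Rps29. A further 86 probe sets list exactly 1 ribosomal protein symbol beside other symbols. Of these 58 rose and none fell in WT tumours, 35 rose and none fell in Tlr4-mutant tumours, and 50 rose and none fell in antibiotic tumours, with medians of 0.39, 0.33 and 0.45. Over all 16663 kept probe sets, 3486 rose and 3166 fell in WT tumours, 2098 rose and 1953 fell in Tlr4-mutant tumours, and 1600 rose and 1463 fell in antibiotic tumours.

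The other genes of the translation machinery gave mixed counts. Of 16 elongation factors and other genes known for TOP tracts, 8 rose and none fell in WT tumours, with a median of 0.34. Among them, the elongation factor subunit Eef1b2 averaged 12.51 in WT tumours and 11.86 in normal liver (adjusted p = 0.00067), and the poly(A)-binding protein Pabpc1 averaged 12.38 and 11.91 (adjusted p = 0.0012). In Tlr4-mutant tumours 5 of the 16 rose, and in antibiotic tumours 7, with none lower in either. Of 71 ribosome assembly genes, 14 rose and 5 fell in WT tumours (median 0.20), 11 rose and 3 fell in Tlr4-mutant tumours, and 11 rose and none fell in antibiotic tumours. Nop58, a core protein of the particles that methylate ribosomal RNA, averaged 8.71 in WT tumours and 6.58 in normal liver, a difference of 2.14 (adjusted p = 2e-05), with 1.77 in Tlr4-mutant and 1.90 in antibiotic tumours. Pno1, a factor of small subunit maturation, fell by 0.54 in WT tumours (adjusted p = 0.0086) and by 0.67 in Tlr4-mutant tumours (adjusted p = 0.0062). Of 26 initiation factors, 6 rose and 1 fell in WT tumours (median -0.01), led by Eif1a (1.40, adjusted p = 0.00048) and by Eif6, which keeps the subunits apart (1.03, adjusted p = 0.0023). Of 13 growth regulators, 2 rose and 4 fell in WT tumours. These counts stand beside 18.8% of all genes higher and 20.2% lower in WT tumours, 11.7% and 10.5% in Tlr4-mutant tumours, and 8.11% and 6.91% in antibiotic tumours. The shares of assembly genes and initiation factors called higher in WT tumours were near that of all genes. The shares called lower there, 5 of 71 and 1 of 26, were smaller than that of all genes. In antibiotic tumours the share of assembly genes called higher, 11 of 71, was larger than the 8.11% of all genes.

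The proteins of the mitochondrial ribosome, a separate particle encoded by its own set of nuclear genes, differed from the cytosolic ones in WT tumours by their counts and median. Of 76 such genes 4 rose and 32 fell in WT tumours, where 20.2% of all genes fell, with a median of -0.29, against 0.34 for the cytosolic genes. Mrpl39 averaged 11.11 in WT tumours and 11.72 in normal liver (adjusted p = 0.00023), and Mrpl11 averaged 9.14 and 9.76 (adjusted p = 0.00027). Mrps23 went the other way, with 6.84 in WT tumours and 5.70 in normal liver (adjusted p = 0.0015). In Tlr4-mutant tumours 6 rose and 9 fell with a median of -0.09, where 11.7% of all genes rose and 10.5% fell, so the share that fell was near that of all genes. In antibiotic tumours 3 rose and 8 fell with a median of -0.13, where 8.11% of all genes rose and 6.91% fell. The difference between the 2 lists is given as counts and medians and was not tested.

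**Figure D4:**
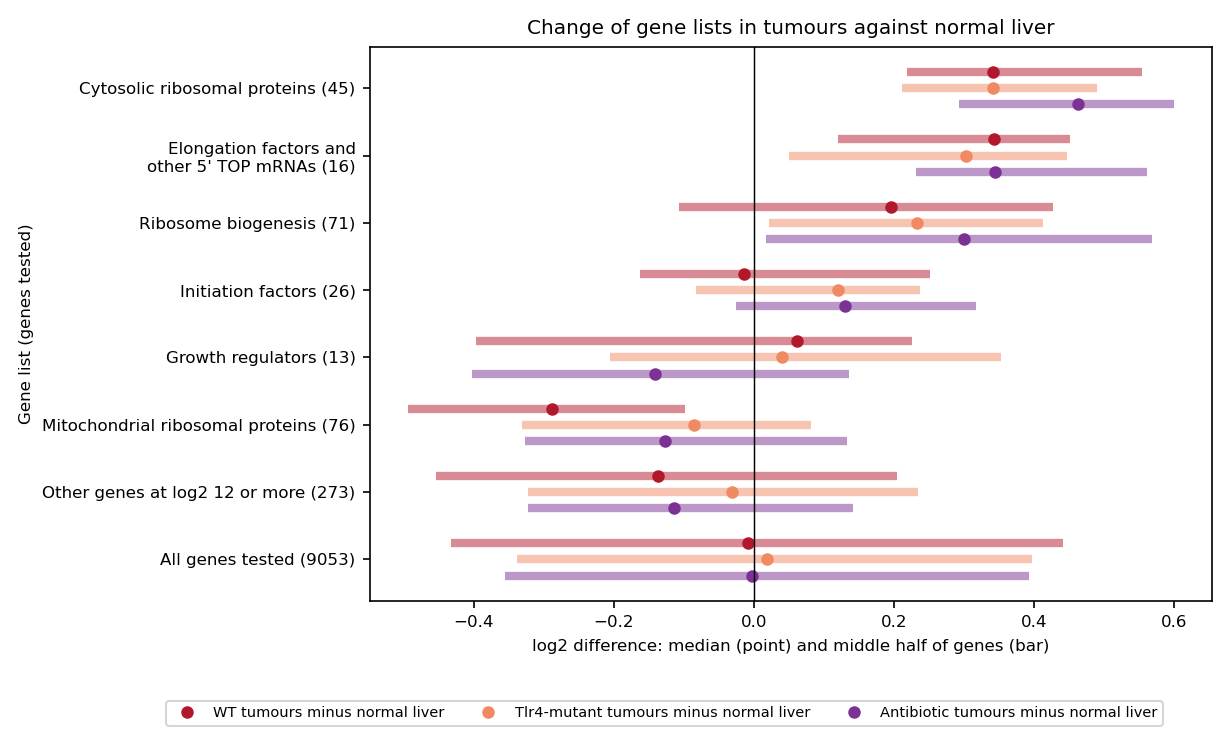
Each row is a gene list, with the number of genes tested in parentheses. Points are the median log2 difference of 1 tumour group minus normal liver, and bars run from the lower to the upper quartile of the genes. The cytosolic ribosomal proteins (medians 0.34, 0.34 and 0.46) and the elongation factors and other TOP genes lie to the right of all genes tested, and the mitochondrial ribosomal proteins (medians -0.29, -0.09 and -0.13) to the left.

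The remaining comparisons ask whether the ribosomal protein genes differed between tumours when the receptor Tlr4 was mutant or antibiotics were given. None of the 45 members passed between Tlr4-mutant and WT tumours, where 0.144% of all genes were higher and 0.122% lower, and none had an unadjusted p under 0.05, where 16.7% of all genes did. The median difference was -0.05 over the members and 0.03 over all genes, and 14 of 45 members were positive, against 53.4% of all genes. The largest differences were -0.23 in Rpl22l1 (unadjusted p = 0.071, adjusted p = 0.34) and 0.26 in Rps6 (adjusted p = 0.35). Over the 36 members at log2 10 or more, the 95% intervals ran no lower than -0.55 (0.68-fold, Rpl41) and no higher than 0.39 (1.31-fold, Rpsa). When each array was left out in turn, and under each alternative, the count stayed 0 in both directions. Taken one by one, 1 of the 87 member probe sets was called higher, where 23 of all 16663 kept probe sets were higher and 42 lower. It was a dimmer probe set of Rpl7l1 (1.06, adjusted p = 0.011), named here after its value was seen.

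Between antibiotic and WT tumours no member passed either, where 0.011% of all genes were higher and 0.0773% lower. One member, Rpl7a of the large subunit, had an unadjusted p under 0.05, where 15.5% of all genes did. It averaged 12.96 ± 0.12 in antibiotic tumours and 12.77 ± 0.07 in WT tumours (SD, n = 3 and 7), and its adjusted p by limma was 0.30. The median difference was 0.08 over the members and 0.02 over all genes, with 35 of 45 members positive, against 51.9% of all genes. The 95% intervals of the 36 brighter members lay between -0.54 (Rpl41) and 0.53 (Rps9). Antibiotic tumours 29 and 30 read 12.89 and 13.09 in the members' median and antibiotic tumour 28 read 12.66, against 12.63 to 12.97 in WT tumours, so 1 antibiotic tumour lay above all WT tumours and the other 2 within their range. These comparisons share the WT tumours.

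Between Tlr4-mutant and antibiotic tumours 4 of 45 members had a positive difference, against 50.5% of all genes, with a median of -0.11 against 0.0039 over all genes, but none passed, where 0.122% of all genes were higher and 0.11% lower. Rpl37 alone had an unadjusted p under 0.05, where 10.3% of all genes did, with a difference of -0.40 and an adjusted p of 0.45. Rps6 was the only member whose groups did not overlap: it read 6.69, 6.86, 6.78, 7.09 and 6.77 in Tlr4-mutant tumours and 6.68, 6.58 and 6.53 in antibiotic tumours. Such separation with the first group above was seen in 3.71% of all genes, and its adjusted p was 0.66. The mitochondrial ribosomal proteins gave no call in any of the comparisons between tumours. In Tlr4-mutant against WT tumours 68 of 76 were positive with a median of 0.18, against 53.4% and 0.03 over all genes. In antibiotic against WT tumours 60 of 76 were positive with a median of 0.17, against 51.9% and 0.02 over all genes. In Tlr4-mutant against antibiotic tumours 38 of 76 were positive with a median of 0.0014, against 50.5% and 0.0039.

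**Figure D5:**
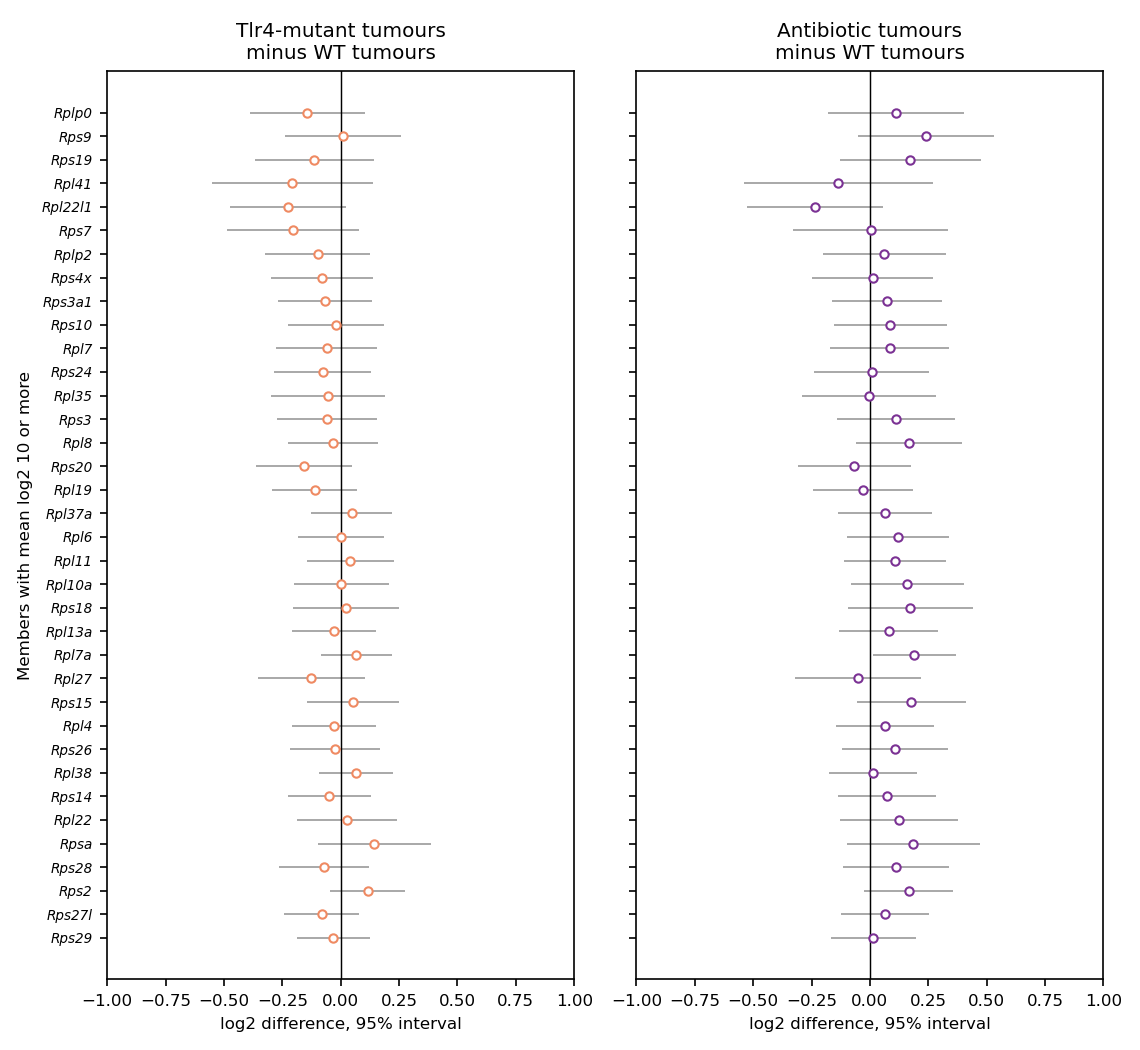
Each row is 1 of the 36 members with a mean of at least log2 10, with the log2 difference and its 95% interval for Tlr4-mutant minus WT tumours (left) and antibiotic minus WT tumours (right). Open points did not pass the threshold. All intervals in the left panel include zero, and in the right panel the interval of Rpl7a alone (0.01 to 0.37) does not.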

How the data were processed

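RNA from 18 liver samples was labelled from 100 ng and hybridised to Affymetrix arrays. The authors deposited log2 intensities per probe set, made with GCRMA per the submitters' processing notes; its version is not given in the sources used here. GCRMA corrects background by probe sequence and normalizes between arrays, so a general shift of all genes cannot be seen. Of 45101 probe sets, those above log2 4 on at least 3 arrays with 1 gene symbol in the platform annotation were kept, with the probe set of highest mean per gene (9053 genes). Groups were compared with limma 3.58.1 (R 4.3.3), fitting all 18 arrays with 4 group means and adjusting p over all genes by Benjamini-Hochberg. The script was tested on simulated data. Control probe sets were compared by exact permutation. No 2 arrays held identical values. The labels give no batch. The members and lists were chosen with earlier results of these data known. Members were picked for naming by role (stalk, 5S particle, Rpsa, Rps6, Rps19 and paralogues). They were also picked by the 6 largest changes and the 3 smallest p-values in each direction of each comparison. List genes were picked by the 2 smallest p-values in each direction. Some genes so picked are not described here, among them Rps20, Rpl27, Mdm2 and Mycn. Rps7, Rps3a1, Rps2, Rps28, Rps15 and Rps24 were otherwise named after their values were seen. Alternatives were other filters, probe set choices, scalings, variance models and arrays left out. The number of arrays limits the precision.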

Additional observations from a re-analysis of the deposited data

Results flagged for a closer look

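Of 92 groups of 4 or more samples examined over the members, 2 held a sample whose gap to its nearest neighbour was large for the range of its group, and chance flags about 1 in 20 such groups. Rps15, a small subunit gene, read 12.51 in WT tumour 19, where the next highest WT tumour read 12.21 and the lowest 11.98. Rpl39, a large subunit gene read near the filter, stood at 5.09 in Tlr4-mutant tumour 24, where the next read 4.83 and the lowest 4.75.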

How the results depend on the processing

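No paired analysis was possible because the groups share no replicate numbers. Across 11 alternatives and 18 fits with 1 array left out, the median change of the members kept its sign in all 3 comparisons with normal liver, and no member was called between tumour groups. Without probe sets that may share sequence, 6, 4 and 4 of 17 members were higher in WT, Tlr4-mutant and antibiotic tumours, fewer members being tested. With probe sets that list a ribosomal protein beside other symbols, an alternative chosen after seeing the data, 51, 30 and 42 of 71 were higher and 0, 0 and 0 lower, more being tested. Array weights gave 35 higher in Tlr4-mutant tumours, where the share of all genes called also moved, to 51.7%. Fitting only the 2 groups gave 6 higher in antibiotic tumours, with fewer samples in the fit. With no filter 2 were lower in WT tumours. Over the 11 alternatives the share of all genes called in either direction ran from 21.95% to 54.8% in WT tumours. It ran from 11.3% to 51.7% in Tlr4-mutant tumours and from 7.27% to 21.4% in antibiotic tumours. Leaving out 1 array gave 19 to 28, 7 to 22 and 9 to 25 higher in WT, Tlr4-mutant and antibiotic tumours, and 1 lower each time. In those fits the share of all genes called ran from 26.2% to 40.85%, 11.2% to 24.4% and 6.37% to 16.5%. Rpl41 turned to -0.20 (adjusted p = 0.67) in WT tumours without probe sets that may share sequence. Over the alternatives it went as low as -0.45 in Tlr4-mutant tumours and -0.48 in antibiotic tumours. Rpl27a turned to 0.31, 0.33 and 0.36 in WT, Tlr4-mutant and antibiotic tumours with the added probe sets. The causes were not tested otherwise. The median between Tlr4-mutant and WT tumours changed sign to 0.03 without WT tumours 17 and 19. Probe sets near log2 4 carry bounds or wide errors.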

Other observations

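The array also carries control probe sets for the 18S ribosomal RNA, the RNA of the small subunit. Its 5′ probe set averaged 14.08 in WT tumours, 14.07 in Tlr4-mutant tumours and 14.09 in antibiotic tumours, against 14.00 in normal liver. Its middle probe set averaged 13.19, 13.11 and 13.30 in the same tumour groups, against 13.24 in normal liver. The 3′ probe set ranged from 11.51 to 13.34 within WT tumours alone, a spread wider than any difference between group means. Whether these control probe sets follow the amount of 18S RNA was not tested, and the 5′ one read near the top of the scale.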
